A study of Mus musculus with 4 samples.

Results

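The keratin genes described here are all protein-coding genes of the mouse annotation whose symbol is Krt followed by a number, 53 of 21883 protein-coding genes. They comprise 27 genes of the type I cluster on chromosome 11 and 26 genes of the type II cluster on chromosome 15. The keratin-associated protein genes (Krtap) were not members. The data are ATAC-seq peaks, places where the Tn5 enzyme cut and tagged accessible DNA, in 4 libraries of whole lung from wild-type mouse embryos at E15.5. All 4 libraries belong to 1 group, with no treated, mutant or control samples, and the labels gave neither a strain nor whether each library had embryos of its own. The SDs over libraries may therefore reflect technical spread alone. Cells were not separated by type, so a low value may come from few cells of a type or from less open DNA in each cell, which cannot be told apart.

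Keratins are the intermediate filament proteins of epithelial cells, and each filament pairs a type I with a type II keratin. Simple epithelia, such as that lining the developing lung, are known for the pairs Krt8 with Krt18 and Krt7 with Krt19. Basal cells of stratified epithelia use Krt5 with Krt14, and Krt15 is a further basal type I keratin. Suprabasal epidermis uses Krt1 with Krt10, the lining of the mouth and oesophagus Krt4 with Krt13, and hair shafts and their root sheaths a large set of their own. In the mouse almost all type I genes lie in one cluster on chromosome 11 and all type II genes in another on chromosome 15, which also holds the type I gene Krt18.

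Replicates 1 to 4 had 134503, 186199, 211678 and 192842 deposited peaks on the autosomes, X and Y, and 78.6, 140.7, 157.9 and 162.1 Mb lay under peaks. Replicate 1 had the shortest list and the highest median fold. Its peaks are named fresh, in French, and the peaks of the other libraries frozen, whereas the labels' protocol describes frozen lungs for all. All 6 lung markers examined (Nkx2-1, Foxf1, Tbx4, Tbx5, Foxa2 and Sftpc) and all 4 markers of lung epithelium (Epcam, Cdh1, Nkx2-1 and Sox9) had a peak at an annotated gene end in every library. Of 5 markers of basal and stratified epithelium, Ngfr and Sfn did so, and Trp63, Krt5 and Krt14 had none in any library. Such a reading takes no account of starts inside a gene, away from its annotated ends. Of 6 genes of skin and hair, Lor and Msx2 did so, Foxn1 had a peak in 3 libraries, Flg and Tchh in 2 each, and Ivl in none. Among all protein-coding genes, 66.7% had such a peak in every library and 22.3% in none, so these short lists say little about which cells were present. Krt5 and Krt14 are also members of the keratin set.

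Promoters of 300 bases are printed for 6 keratins because the results turn on whether a peak covers them. Krt7, Krt8 and Krt18 are simple-epithelium keratins. Krt79 and Krt13 are the other keratins whose tabled promoter lay under a peak in every library, any overlap being counted. In Krt13 the peak covered only 65, 74, 55 and 95 of the 300 bases in replicates 1 to 4, at the 3′ end of the promoter. Krt5 is shown as a basal keratin with no such peak. Each runs 5′ to 3′ from 250 bases before to 50 bases after a transcript start tabled by RefSeq (GRCm38.p6, the assembly that mm10 represents). The table held 36 of the 53 keratins. Capitals mark matches to any of 8 motifs on either strand, namely GGGCGG (the GC box), CCAAT (the CCAAT box), TATAAA (the TATA box), TGANTCA (AP-1), CCGGAA (ETS), AACCGGTT (grainyhead-like), GGAATG (TEAD) and TGTTTAC (forkhead).
Krt7, chr15:101412153-101412452, plus strand: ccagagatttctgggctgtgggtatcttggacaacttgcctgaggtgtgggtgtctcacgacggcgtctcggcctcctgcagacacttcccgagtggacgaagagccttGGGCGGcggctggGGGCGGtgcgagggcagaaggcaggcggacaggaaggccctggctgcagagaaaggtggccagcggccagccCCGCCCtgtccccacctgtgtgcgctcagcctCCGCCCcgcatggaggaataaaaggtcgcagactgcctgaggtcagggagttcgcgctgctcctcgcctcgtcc
Krt8, chr15:102004293-102004592, minus strand: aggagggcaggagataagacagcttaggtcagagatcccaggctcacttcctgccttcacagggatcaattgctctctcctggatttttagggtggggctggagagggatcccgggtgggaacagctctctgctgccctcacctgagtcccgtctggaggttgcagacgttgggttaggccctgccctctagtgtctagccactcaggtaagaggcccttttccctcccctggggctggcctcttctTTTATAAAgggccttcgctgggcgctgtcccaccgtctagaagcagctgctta
Krt18, chr15:102027966-102028265, plus strand: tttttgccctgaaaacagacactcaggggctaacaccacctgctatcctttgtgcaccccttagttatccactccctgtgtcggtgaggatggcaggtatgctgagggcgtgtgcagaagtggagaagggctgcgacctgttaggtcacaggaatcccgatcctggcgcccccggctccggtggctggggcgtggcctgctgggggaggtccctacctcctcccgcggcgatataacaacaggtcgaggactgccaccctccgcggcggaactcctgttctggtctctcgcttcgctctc
Krt79, chr15:101940275-101940574, minus strand: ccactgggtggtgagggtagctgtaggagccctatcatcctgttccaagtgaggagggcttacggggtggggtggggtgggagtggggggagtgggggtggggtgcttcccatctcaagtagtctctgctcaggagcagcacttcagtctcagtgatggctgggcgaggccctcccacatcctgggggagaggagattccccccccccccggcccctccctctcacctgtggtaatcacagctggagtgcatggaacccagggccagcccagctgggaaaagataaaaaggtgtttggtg
Krt13, chr11:100120528-100120827, minus strand: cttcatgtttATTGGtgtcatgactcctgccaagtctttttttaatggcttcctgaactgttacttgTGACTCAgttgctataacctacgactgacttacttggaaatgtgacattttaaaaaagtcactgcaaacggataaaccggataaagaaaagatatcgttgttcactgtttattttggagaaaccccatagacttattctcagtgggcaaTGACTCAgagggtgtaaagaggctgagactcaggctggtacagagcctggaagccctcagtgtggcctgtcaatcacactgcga
Krt5, chr15:101712856-101713155, minus strand: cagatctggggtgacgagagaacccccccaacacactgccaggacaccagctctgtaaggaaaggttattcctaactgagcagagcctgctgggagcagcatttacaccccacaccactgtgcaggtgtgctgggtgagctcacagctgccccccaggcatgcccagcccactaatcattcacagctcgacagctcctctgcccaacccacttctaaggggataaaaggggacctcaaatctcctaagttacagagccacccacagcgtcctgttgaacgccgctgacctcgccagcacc

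Krt7 held 4 GC boxes, Krt8 a TATAAA match at the start itself that overlaps its own reverse complement, and the Krt13 promoter shown 2 AP-1 matches and 1 CCAAT match. In Krt13 the CCAAT match and the AP-1 match farther from the start lay outside the peak in every library. The nearer AP-1 match lay under it in replicate 4 alone. Krt18, Krt79 and Krt5 held none of the 8 motifs. CCGGAA and GGAATG can overlap in their shared GGAA, but no promoter shown held either of them. The Krt7 and Krt18 promoters contained 21 and 17 CpG dinucleotides, against 6 in Krt8, 6 in Krt5, 5 in Krt13 and 3 in Krt79. The median was 5 over the 37 tabled keratin promoters (Krt13 has 2) and 7 over all 32851 promoters. The median was 20 over all promoters under a peak in every library and 3 over the others, so Krt7 and Krt18 lay near the open promoters in CpG content while Krt8, Krt79 and Krt13 did not.

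Among the 37 keratin promoters, TATAAA was present in 19, against 13.6% of all promoters, and CCAAT in 15, against 37.4%. GGGCGG was present in 2 (Krt7 and Krt75), against 35.7%. TGANTCA was found in both Krt13 promoters and no other keratin promoter, against 7.81% of all promoters. GGAATG was present in 3 keratin promoters, against 14.7% of all, and CCGGAA in 1, that of Krt14, against 14.9%. Neither TGTTTAC nor AACCGGTT was found in a keratin promoter, against 3.65% and 0.146% of all promoters. A match describes these letters in this window only.

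Gene ends were read through windows of 1 kb either side of each of the 2 annotated ends, and a gene counted as open if all 4 libraries placed a peak of their own over such a window. Of the 53 keratin genes 15 were open, 28.3%, against 66.7% of all protein-coding genes. Another 13 keratins had a gene-end peak in 1 to 3 libraries, and 25 had none in any library, whereas 22.3% of all genes had none. By library, 19, 24, 21 and 20 keratins had a peak, while 69.2%, 73.2%, 73.9% and 73.8% of all genes did. Without replicate 1, 17 keratins were open, against 70.4% of all genes. The type II cluster held 10 of the 15 open genes and the type I cluster 5. When the summit itself had to lie in the window, 11 keratins were open, against 60.5% of all genes. With 0.5 kb windows 11 keratins were open (63.5% of all genes), and with 2.5 kb windows 24 (71.6%).

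All 4 simple-epithelium keratins were open, against 0 of 3 basal, 0 of 4 stress keratins (Krt6a, Krt6b, Krt16 and Krt17, induced in wounded epidermis and present in skin appendages), 2 of 16 hair shaft keratins and 0 of 8 keratins of the root sheath and companion layer. Of the rest, 2 of 5 suprabasal keratins, 3 of 6 mucosal and corneal keratins and 4 of 7 others were open. Krt79, counted with the mucosal keratins, is known from the hair canal, and without it 2 of 5 were open. Each open count is read against the 66.7% of all genes. The classes come from general knowledge of where keratins are expressed, not from these libraries.

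**Figure D1:**
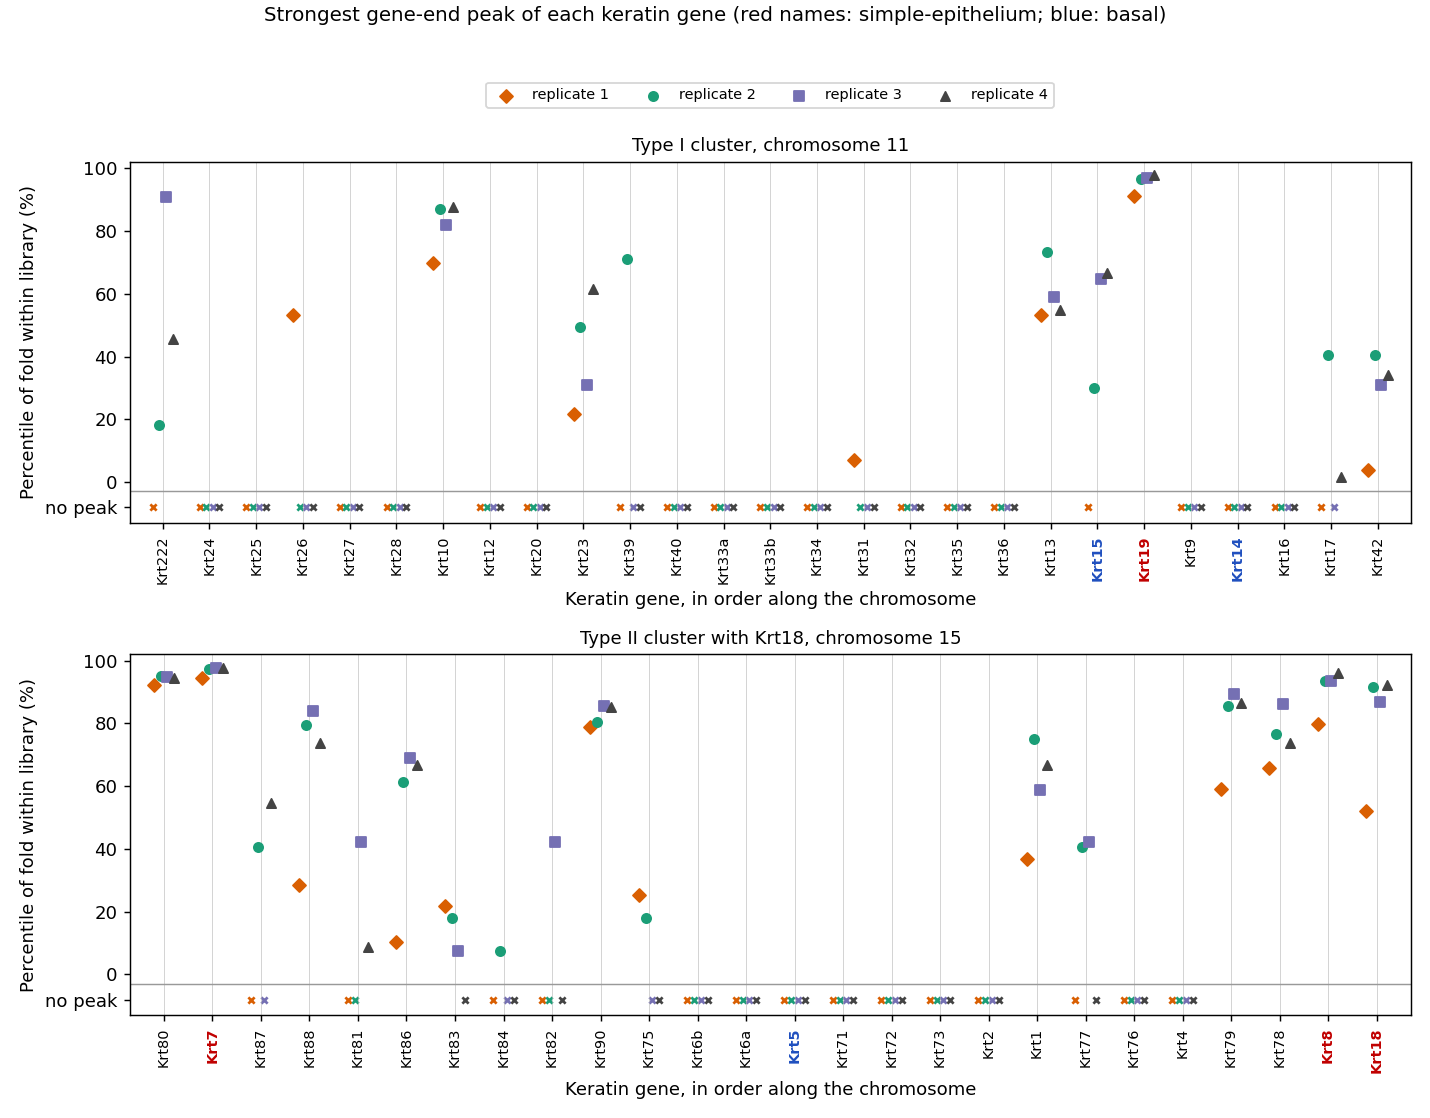
Strength of the strongest gene-end peak of each of the 53 keratin genes, as the percentile of its fold enrichment among all peaks of the same library, with 1 marker per library and crosses where a library had no peak. Krt7 and Krt19 sit above the 91st percentile in every library, and the row of crosses runs unbroken through Krt6b, Krt6a, Krt5, Krt71, Krt72, Krt73 and Krt2.

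Strength was read as the percentile of a peak's deposited fold enrichment among all peaks of its library, 100 being the strongest. Krt7, a type II keratin of glandular and lung epithelium, lies on chromosome 15 from 101412403 to 101427806 (mm10). Its strongest gene-end peak stood at the 94.5th, 97.3rd, 97.7th and 97.6th percentile in replicates 1 to 4, 96.8 ± 1.52 (SD, n = 4), with folds of 81.6, 35.1, 31.2 and 32.7. The summit was not at the start but 1413, 1412, 1438 and 1425 bp upstream of it, at nearly the same base in all 4 libraries. In replicate 1 a separate peak covered the start itself, at the 75.4th percentile, with its summit 57 bp upstream. In replicates 2 to 4 a single peak of 4130 to 5052 bp spanned both places. This peak also touches an end window of Gm671, a long non-coding RNA gene whose annotated span reaches into the printed Krt7 promoter.

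Krt19, the type I partner of Krt7 and unusual among keratins in lacking a long tail, lies on chromosome 11 from 100140810 to 100145926. Its gene-end peak stood at the 91.1st, 96.5th, 96.9th and 97.9th percentile, with folds of 55.9, 29.0, 25.3 and 35.2. The summit lay 256, 181, 275 and 202 bp beyond the higher-coordinate end of the gene. Replicate 1 was the lowest of the 4 by rank and the highest by fold. The table of promoters used here did not pair Krt19 with a strand.

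Krt8, the earliest type II keratin of the embryo, lies on chromosome 15 from 101996711 to 102004342 on the minus strand. Its gene-end peak stood at the 79.8th, 93.6th, 93.5th and 96.1st percentile, 90.7 ± 7.38 (SD, n = 4), with folds of 24.7, 18.2, 14.5 and 23.3. The summit lay 42, 55, 77 and 54 bp upstream of the tabled start, inside the promoter printed above in all 4 libraries. The peak was 858 bp wide in replicate 1 and 4242 to 5466 bp wide in the others.

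Krt18, the type I partner of Krt8, lies 23.9 kb beyond the start of Krt8, from 102028216 to 102032026 on the plus strand, so the starts of both genes face each other across that interval. Its gene-end peak stood at the 52.0th, 91.8th, 86.8th and 92.2nd percentile, 80.7 ± 19.3 (SD, n = 4), or 90.3 without replicate 1. The summit lay 39 bp upstream of the start in replicate 1, 181 bp downstream in replicate 3 and 154 bp upstream in replicate 4. In replicate 2 it lay 2835 bp upstream, within a peak of 4146 bp that also covered the start. The promoter of Krt18 was thus under a peak in every library, but in replicate 2 the rank belongs to another site.

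By mean percentile the 4 genes ran Krt7, Krt19, Krt8, Krt18, and each neighbouring pair differed by less than the larger of its SDs. With windows of 0.5 kb Krt7 averaged 92.0 ± 11.1, below Krt19 at 95.6 ± 3.03 (SD, n = 4), so the order of these 2 genes depends on the window. By library, the median percentile over the 4 genes was 85.5, 95.02, 95.2 and 96.8. The median over all genes with a gene-end peak was 90.5, 95.1, 95.5 and 95.1, so the simple-epithelium keratins lay about as high as an ordinary gene that has such a peak. Gene bodies of these 4 keratins were covered by peaks over 36.0% ± 15.3 of their bases (SD over 4 libraries of the mean over genes). It was 12.4% ± 5.57 in mucosal and corneal keratins, 7.26% ± 2.56 in the mixed group of others, 5.41% ± 2.02 in suprabasal, 4.91% ± 2.19 in hair, 1.58% ± 1.31 in basal, 1.19% ± 0.619 in root sheath and 0.0247% ± 0.0493 in stress keratins. The same mean over all protein-coding genes was 17.1% ± 5.99. Single genes outside the simple class also had high coverage, with 33.4% ± 13.7 in Krt78 and 26.1% ± 12.8 in Krt80, against 30.4% ± 12.3 in Krt7 and 30.9% ± 10.9 in Krt8. Most of the 50624 bp of Krt78 lies beyond its tabled start, in the 42.4 kb up to Krt8, which were covered over 36.1% ± 14.7 (SD, n = 4). The Krt78 value thus largely includes DNA next to Krt8, and the mucosal mean does so in part. Krt13, at 22.7% ± 13.9, and Krt79, at 18.4% ± 8.33, also entered that mean, with 0% in Krt4, Krt12 and Krt76.

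**Figure D2:**
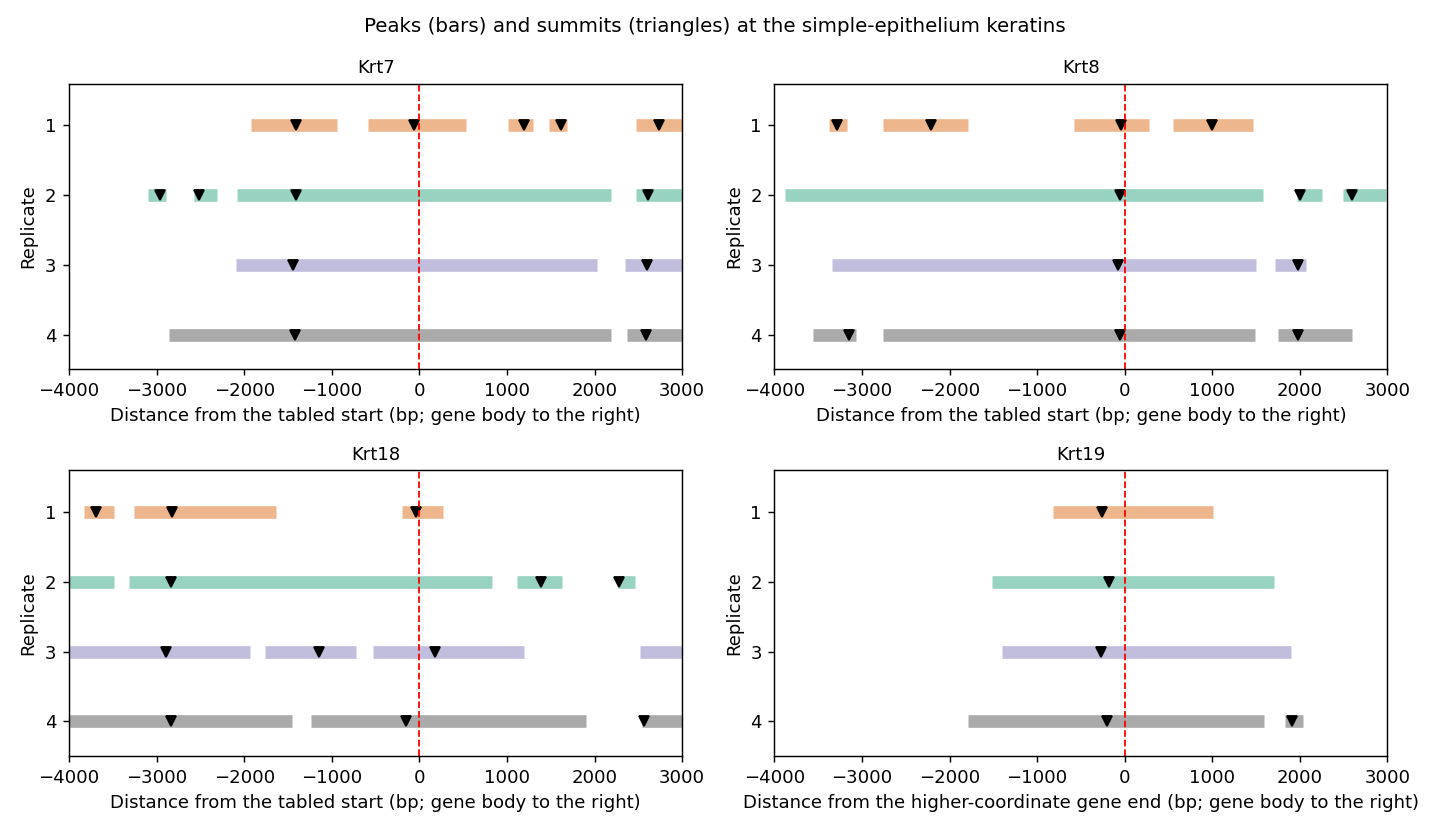
Peaks (bars) and their summits (triangles) around the simple-epithelium keratins, 1 row per library, with distance in bp from the tabled start, or for Krt19 from the higher-coordinate gene end. Summits of Krt8 and Krt19 line up near 0, those of Krt7 lie 1412 to 1438 bp upstream, and the summit of the Krt18 peak in replicate 2 lies far upstream.

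Basal keratins showed no comparable peak. Krt5, on chromosome 15 from 101707069 to 101712905, and Krt14, on chromosome 11 from 100203162 to 100207510, lacked a gene-end peak in all 4 libraries. The tabled start of Krt14 lies inside the annotated gene, so its tabled promoter was not shown. Krt15, on chromosome 11 from 100131759 to 100135949, had none in replicate 1 and peaks at the 29.97th, 64.6th and 66.7th percentile in replicates 2, 3 and 4. Those summits lay 136, 11 and 69 bp inside its higher-coordinate end. A stretch of 36.9 kb from Krt6b through Krt6a to Krt5 held no peak in replicates 1, 2 and 4 and 1 in replicate 3. A stretch of 62.1 kb from Krt9 through Krt14 to Krt16 held 1 peak, in replicate 4. A count of 0 says that no peak was called at this depth, not that the DNA was closed.

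Suprabasal and mucosal keratins were mixed. Among suprabasal keratins, Krt10 and its partner Krt1 were open, Krt77 had a gene-end peak in 2 libraries, and Krt2 and Krt9 had none. The Krt10 peak stood at the 69.6th, 87.0th, 81.8th and 87.7th percentile, but 3272 to 3322 bp downstream of the tabled start, near the 3′ end. The Krt1 peak stood at the 36.8th, 75.1st, 58.9th and 66.7th percentile, 636 to 899 bp inside the lower-coordinate end. No start was tabled for Krt1, and within 1 kb of the tabled start of Krt10 a peak was found in 1 library.

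Of the mucosal and corneal keratins, Krt13, Krt78 and Krt79 were open, and Krt4, Krt76 and the corneal keratin Krt12 lacked a gene-end peak in all 4 libraries. Krt4 and Krt13, which pair in mucosal epithelium, therefore differed in their call. Krt13 stood at the 53.3rd, 73.3rd, 58.9th and 54.7th percentile, and its summits lay 72, 117, 82 and 136 bp downstream of the second of its tabled starts, whose promoter is the one printed. Krt79 stood at the 59.2nd, 85.5th, 89.3rd and 86.7th percentile, with summits 208, 271, 276 and 176 bp upstream of its start. The call for Krt78 came from its lower-coordinate end, more than 8 kb from its tabled start, at the 65.9th, 76.7th, 86.2nd and 73.9th percentile.

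Hair shaft keratins had a gene-end peak in 19 of 64 pairs of gene and library, with percentiles from 6.86 to 83.9 and a median of 42.3. The 2 open genes were Krt88 and Krt86. Krt88 stood at the 28.5th, 79.4th, 83.9th and 73.9th percentile, with summits 413 to 452 bp inside its higher-coordinate end. Krt86 stood at the 10.5th, 61.2nd, 68.9th and 66.7th percentile, with summits 583 to 606 bp inside that end. Krt83 had a peak in 3 libraries, Krt81 and Krt87 in 2 each, and Krt31, Krt39, Krt82 and Krt84 in 1 each. Krt81, Krt83 and Krt86 are closely similar genes, and how reads that fit several copies were handled was not given in the sources used here, so their values are uncertain. The same holds for calls and missing calls in other similar genes, among them Krt6a with Krt6b, Krt14 with Krt16 and Krt17, Krt33a with Krt33b, and the Krtap genes.

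The other 7 hair keratins, all of the type I cluster (Krt32, Krt33a, Krt33b, Krt34, Krt35, Krt36 and Krt40), lacked a gene-end peak throughout. Keratins of the root sheath and companion layer had a peak in 3 of 32 pairs of gene and library, at percentiles of 18.1 to 53.3, namely Krt26 in 1 library and Krt75 in 2. Krt25, Krt27, Krt28, Krt71, Krt72 and Krt73 had none. The stress keratins had 2 peaks in 16 pairs, both at Krt17, at the 40.6th percentile in replicate 2 and the 1.66th in replicate 4. The first of these was shared with Krt42.

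Of the remaining 7 keratins, Krt80, a type II keratin broadly found in epithelia, ranked high. It stood at the 92.3rd, 95.1st, 94.7th and 94.5th percentile, 94.2 ± 1.30 (SD, n = 4), with summits 247 to 393 bp beyond its higher-coordinate end. The peak also covered the windows of the microRNA gene Mir1941, which lies within the Krt80 gene. Krt90 stood at the 78.8th, 80.5th, 85.5th and 85.3rd percentile, 945 to 1031 bp inside its lower-coordinate end and more than 9 kb downstream of its tabled start. Krt23 and Krt42 were open through weak peaks. Krt23 stood at the 21.8th, 49.3rd, 30.9th and 61.5th percentile, 40.9 ± 17.9 (SD, n = 4). Krt42 stood at the 3.68th, 40.6th, 30.9th and 34.3rd percentile, 27.4 ± 16.3 (SD, n = 4). The Krt23 peaks did not share 1 position, since in replicate 4 the strongest lay at the opposite end of the gene from the others. Krt222 had peaks in 3 libraries, which also touched the windows of its neighbour Smarce1, and Krt20 and Krt24 had none.

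Where the table gave a strand, starts alone could be read. Of 36 such keratins, 6 had a peak within 1 kb of a tabled start in every library (Krt7, Krt8, Krt18, Krt13, Krt23 and Krt79), against 66.5% of 17491 genes with a tabled start. Of the 37 tabled keratin promoters, 5 lay at least in part under a peak in every library, against 48.6% of all promoters. None of the 9 hair keratins, 8 root sheath keratins or 2 basal keratins with a tabled start had such a peak in every library. Krt10, Krt42, Krt78 and Krt90 were thus called open through their 3′ end.

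The clusters differed from each other as well. The type I cluster, from 99232761 to 100269951 on chromosome 11, spans 1037 kb, and 1.87%, 3.22%, 3.0% and 3.86% of its bases lay under peaks in replicates 1 to 4. The type II cluster, from 101348315 to 102032026 on chromosome 15, spans 683.7 kb, with 4.60%, 11.1%, 12.4% and 13.0% under peaks. Over the genome the shares were 2.95%, 5.29%, 5.93% and 6.09%. The type I cluster thus had 0.595 ± 0.0609 times the coverage of the genome and the type II cluster 1.97 ± 0.277 times (SD, n = 4 libraries), and in each library the 2 clusters lay on opposite sides of it. Set against its own chromosome, the type I cluster had 0.339 ± 0.0475 times its coverage and the type II cluster 1.75 ± 0.208 times. The type I span also includes 444 kb spanned by Krtap genes, which are not members. Of that stretch 0.573%, 0.746%, 0.707% and 1.06% lay under peaks in replicates 1 to 4. The low type I values are thus not those of keratin DNA alone. Peaks numbered 45, 55, 57 and 67 in the type I cluster and 57, 74, 97 and 84 in the type II cluster.

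**Figure D3:**
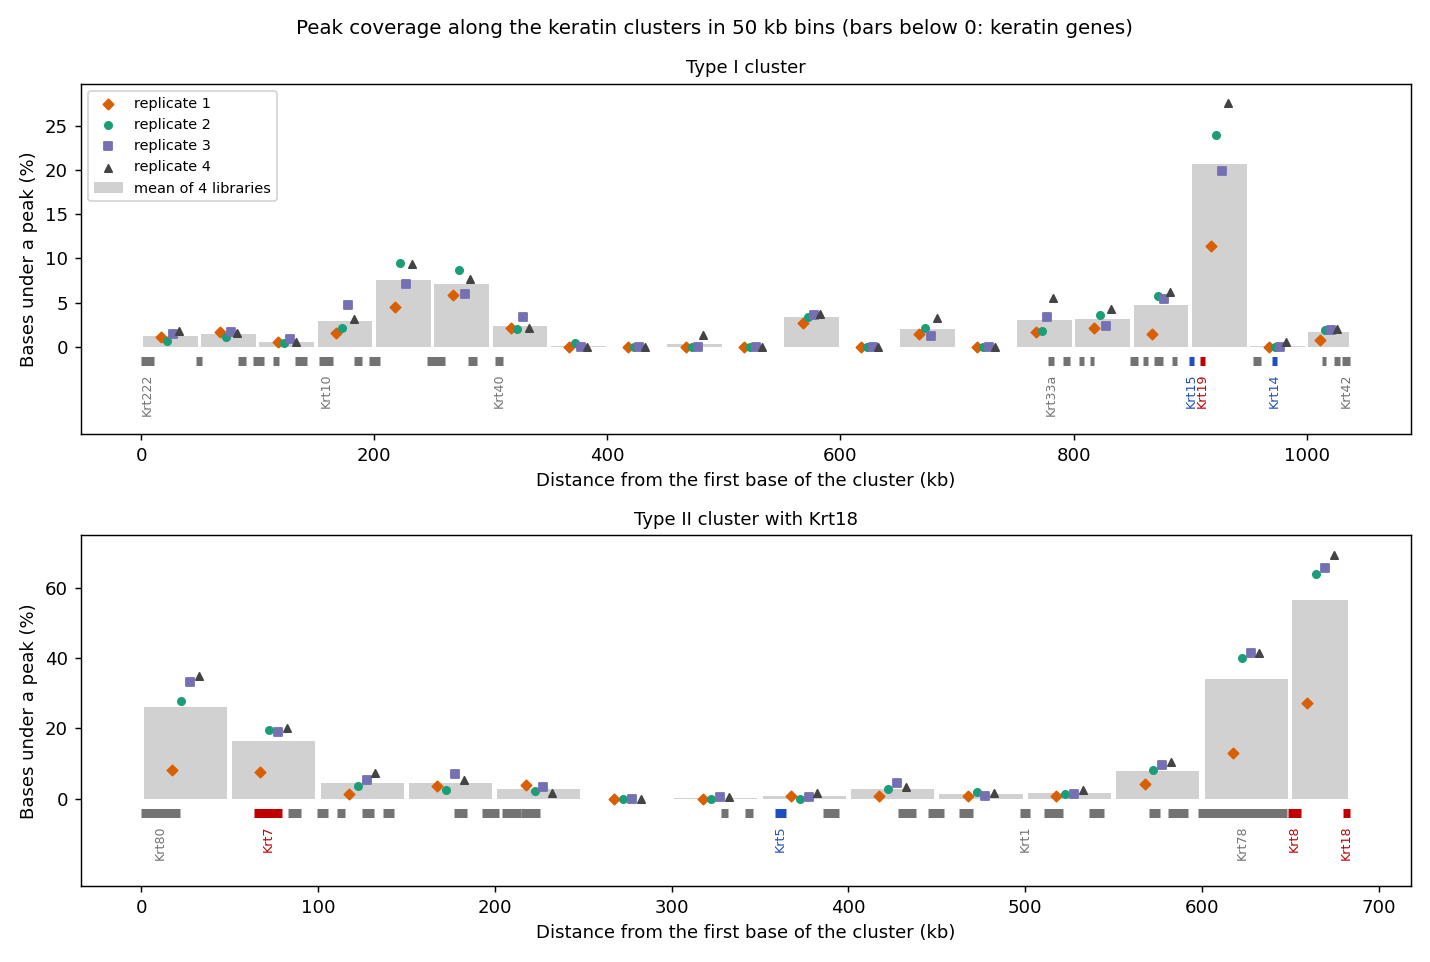
Share of bases under a peak in 50 kb bins along each cluster, with grey bars for the mean of 4 libraries, markers for each library and short bars below 0 for keratin genes. In the type II cluster coverage averages 56.6% in the last, shorter bin, with Krt8 and Krt18, 34.0% in the bin before it and is lower in all others, the first bin, with Krt80, coming next. In the type I cluster only the bin with Krt19 exceeds 20% on average.

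Coverage was concentrated near the simple-epithelium keratins. DNA within 25 kb of Krt7, Krt8 or Krt18 makes up 18.4% of the type II cluster and held 59.3%, 63.9%, 57.9% and 57.5% of its covered bases. That DNA was covered over 33.3% ± 12.3 of its bases and the rest of the type II cluster over 5.10% ± 2.03, against 5.07% ± 1.45 for the genome (SD, n = 4). The distance of 25 kb was chosen after the values had been seen. At 25 kb most of the bin with Krt80 counts with the rest. With 10 kb the rest was covered over 7.15%, and with 50 kb, which takes in the gene-end peak of Krt80, over 2.59%. In the type I cluster, DNA within 25 kb of Krt19 makes up 5.31% of the length and held 31.5%, 41.5%, 36.5% and 37.3% of the covered bases. It was covered over 21.0% ± 7.13 and the rest, which includes the sparsely covered stretch of Krtap genes, over 1.98% ± 0.492.

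Between the starts of Krt8 and Krt18, 32.2%, 72.9%, 74.9% and 75.7% of 23.9 kb lay under peaks. Summits of the 4 libraries that chained at gaps of at most 100 bp were counted as a shared summit site when every library had one. The interval held 5 such sites, at 54 bp and 6.63, 9.51, 12.7 and 21.0 kb from the Krt8 start, the nearest being that of the Krt8 promoter. Their mean percentiles were 90.7 ± 7.38, 82.0 ± 5.55, 89.0 ± 5.49, 89.9 ± 8.83 and 89.3 ± 5.81 (SD, n = 4). The type II cluster held 21 shared summit sites, or 3.07 per 100 kb, against 1.06 per 100 kb in the type I cluster (11 sites) and 1.41 in the genome. The peak around the Krt8 start in replicates 2, 3 and 4 also touched a window of Gm36026, a long non-coding RNA gene in this interval.

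On the other side of Krt8 stood the shared summit sites with the highest mean percentile of either cluster. They lay 19.9 and 26.8 kb from the Krt8 start, beyond its 3′ end. The nearer site, at 101984392 to 101984418, stood at the 95.1st, 98.1st, 98.2nd and 98.0th percentile, 97.3 ± 1.503 (SD, n = 4), with summits within 26 bp of each other. The farther site, at 101977525 to 101977561, stood at the 95.4th, 97.7th, 97.5th and 97.3rd percentile, with summits within 36 bp. Both ranked above the Krt8 promoter in every library. They lie inside the annotated span of Krt78, which reaches to within 87 bp of Krt8 in this annotation, but beyond the tabled start of Krt78. Between that start and Krt8, 14.1%, 42.0%, 44.1% and 44.1% of 42.4 kb lay under peaks.

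**Figure D4:**
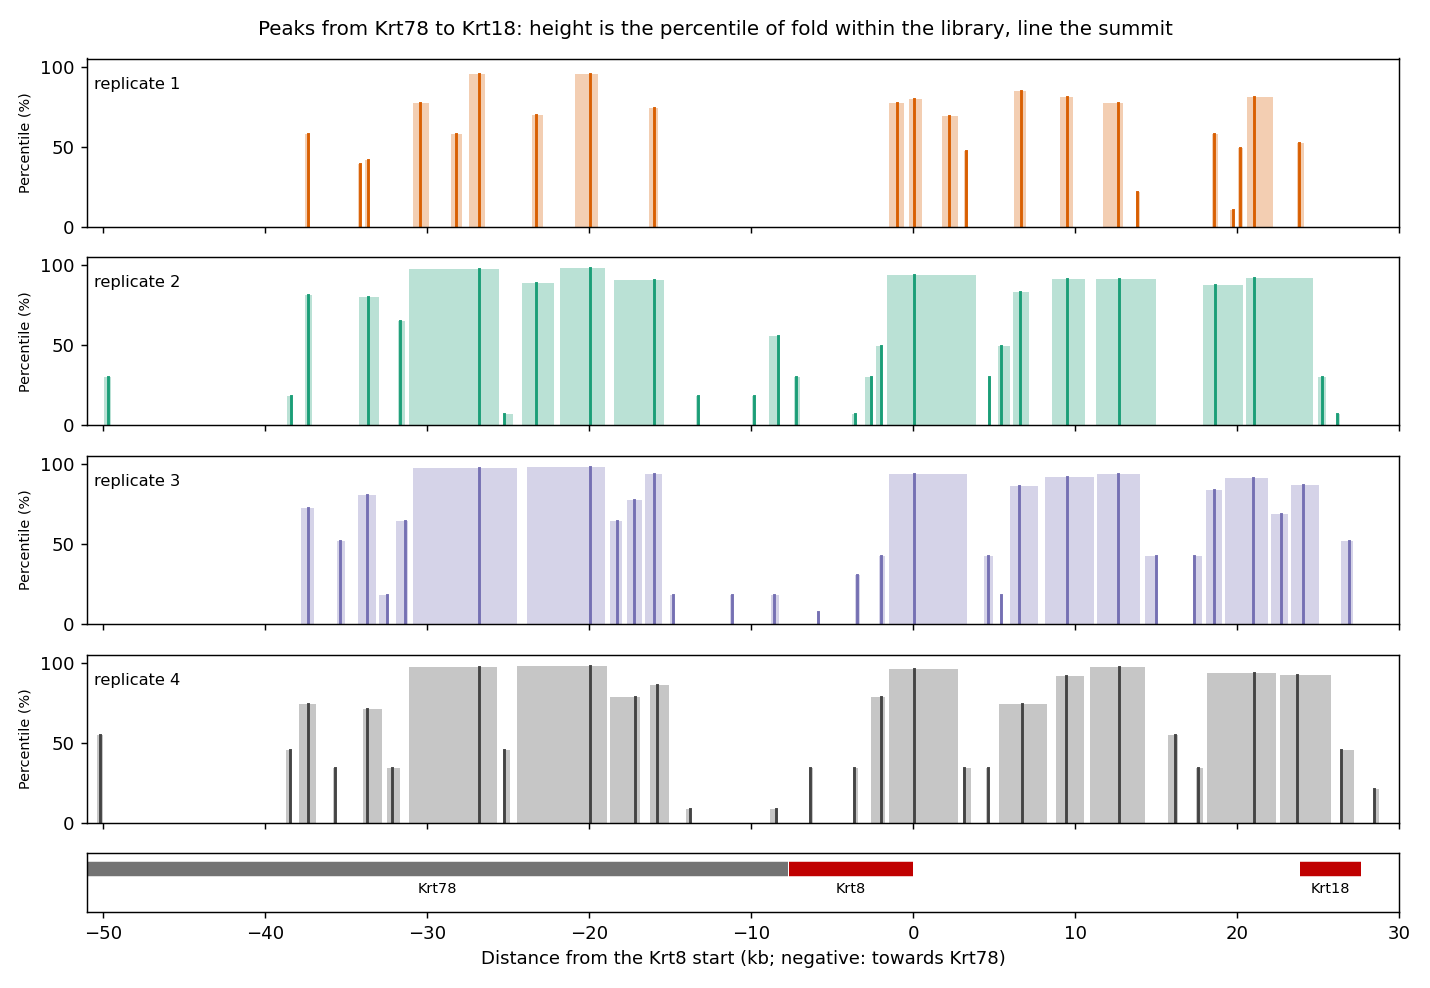
Peaks of each library between Krt78 and Krt18, with box width for the extent of the peak, height for its percentile of fold within the library and a line for its summit. Several summits recur in all 4 libraries, and the pair near 20 and 27 kb on the Krt78 side are the highest in the interval in every library.

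At the other end of the type II cluster, 9.76%, 23.4%, 27.7% and 29.8% of the 42.2 kb between Krt80 and Krt7 lay under peaks, with 3 shared summit sites. Those nearest the ends of the interval belong to the gene-end peaks of Krt80 and Krt7 described above. The remaining site stood at 69.8 ± 5.35 (SD, n = 4). Near Krt19, shared summit sites lay 9.77 and 22.4 kb beyond the higher-coordinate end, at 67.4 ± 8.51 and 89.8 ± 5.44 (SD, n = 4), the second of them 18.5 kb from Krt9. The second site ranked below the gene-end peak of Krt19 in every library.

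Away from these places both clusters held long stretches without a peak in any library. The longest in the type I cluster, 110.0 kb from 99714875 to 99824859, contained Krtap genes and no keratin. The longest in the type II cluster, 71.0 kb from 101584961 to 101655957, lay between Krt75 and Krt6b. Further stretches without peaks were 73.9 kb with Krt12, Krt20 and part of Krt10, 66.0 kb with Krt76, Krt4 and part of Krt77, and 65.1 kb with Krt73, Krt2 and part of Krt72. Of 23 Krtap genes inside the type I cluster 0 were open, and Krtap17-1 had a gene-end peak in 3 libraries and Krtap3-3 in 1. The 444 kb spanned by Krtap genes held 3, 4, 4 and 8 peaks in replicates 1 to 4. Of 15 other protein-coding genes in the type I cluster, 0 were open.

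A list of genes of desmosomes, plakins, cell junctions and other keratin partners was read in the same way. Of its 26 genes 20 were open, 76.9% against 66.7% of all genes. Dsp, encoding desmoplakin, which ties keratin filaments to desmosomes, was open, as were the plakoglobin gene Jup, the plectin gene Plec and Epcam. Among desmosomal cadherins, Dsg2 and Dsc2, the forms found in simple epithelia, were open, at percentiles of 70.2 to 90.6 and 18.1 to 77.2. Dsg3 and Dsc1, cadherins of stratified epithelia, had a gene-end peak in 0 libraries, Dsg1a in 1 and Dsc3 in 2. Other partners known from stratified epithelia were open, with the periplakin gene Ppl at percentiles of 97.5 to 99.1, the envoplakin gene Evpl at 94.9 to 98.7 and the plakophilin gene Pkp1 at 57.04 to 81.4. Of the hemidesmosome genes, which anchor basal keratins, Itga6 and Itgb4 were open and Col17a1 had peaks in 2 libraries. Of 13 genes for other intermediate filaments, 11 were open, among them Vim and the 3 lamin genes, while Gfap had gene-end peaks in 2 libraries and Prph in 3.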

How the data were processed

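ATAC-seq peaks of 4 libraries of wild-type E15.5 mouse lung (60000 nuclei each, per the labels' protocols) were analysed, 1 deposited narrow-peak list per library. Build mm10, MACS3 3.0.1, Bowtie2 2.5.2, SAMtools 1.18, Trim Galore, FastQC 0.12.1, deepTools and bedtools 2.31.0 come from the submitters' processing notes. Their roles, parameters, duplicate removal, the shift for the Tn5 cut and the handling of multiply mapped reads are not given in the sources used here. The deposited fold enrichment ratio of each peak is the authors' own value and was used only to rank peaks within a list. The deposited −log10 p was not analysed, the deposited −log10 q (lowest value per list from 1.32 to 1.87) set the stricter alternative, and the deposited score entered no result. Summit positions came from the deposited offset. No read totals were used, so the depth of each library is unknown.

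Peaks on 19 autosomes, X and Y were kept. Gene ends came from a RefSeq table of GRCm38.p6, and strand from its promoter table (17491 of 21883 genes). Coverage of the genome was taken between the first and last peak of each chromosome. Counting was checked on simulated peaks. Python 3.11.15, NumPy 2.4.6, pandas 2.3.3 and Matplotlib 3.10.9 were used. With 1 group and no contrast, values were described with their SD and no test between groups was run. Dixon's criterion for outlying libraries was the only test. The members, classes and lists were chosen with earlier results of these data known, and shared summit sites and the 25 kb distance after the values had been seen. Values by library were given for simple and basal keratins and for other open keratins. The alternatives tried were leaving out each library, peaks with q at or under 1e-05, lists shortened to equal length, windows of 0.5 and 2.5 kb, summits inside the window, at least 3 of 4 libraries, tabled starts only, and clusters widened by 50 kb.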

Additional observations from a re-analysis of the deposited data

Results flagged for a closer look

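In 19 values taken per library, a single library far from the other 3 was looked for with Dixon's criterion, which chance meets in about 1 in 20 groups. It was met 5 times, each time with replicate 1 the lowest. The 19 values come from the same 4 libraries and are not independent, so this count cannot be set against that rate. The gene-end percentile of Krt7 was 94.5 in replicate 1, against 97.3 to 97.7 in the others. That of Krt8 was 79.8, against 93.5 to 96.1, and that of Krt18 was 52.0, against 86.8 to 92.2. For Krt79 it was 59.2, against 85.5 to 89.3, and for Krt86 it was 10.5, against 61.2 to 68.9. Over all genes with a gene-end peak the median percentile was also lowest in replicate 1, at 90.5, against 95.1 to 95.5. The part of library preparation, list length or storage in these values was not tested.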

How the results depend on the processing

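All 4 simple-epithelium keratins were open in each of the 9 alternatives that judged both gene ends by overlap, and 3 of the 3 with a strand at tabled starts, but only 2 (Krt8 and Krt19) when the summit had to lie inside the window. Tabled starts only gave 6 open keratins and 0 hair keratins, and 2.5 kb windows gave 24 keratins, 7 hair and 1 basal. At least 3 of 4 libraries gave 18 open keratins, 1 of them basal, against 71.5% of all genes. A q of 1e-05 or less left 11 open keratins, 1 of them of hair, against 63.7% of all genes. It gave 2.65 peaks per 100 kb in the type I cluster, against 5.40 with all peaks, and 5.74 in the type II cluster, against 11.4, and 2.01% coverage of the type I cluster, against 2.99%. Lists of equal length gave 3.86 peaks per 100 kb in the type I cluster. Widening by 50 kb gave 6.64 peaks per 100 kb and 4.28% there. Outside 10 or 50 kb of the simple keratins, 7.15% or 2.59% of the type II cluster was covered. Leaving out 1 library gave 0 to 1 open basal keratins, Krt15 being called without replicate 1, against 67% to 70.4% of all genes. A count was taken as moved if it changed more than 1.5-fold, or from or to 0. Any other value moved if it changed by at least 1 SD over libraries. Of 76 alternatives for the counts and cluster values 17 moved, and of 127 for single genes 11. The 127 leave out each gene that lost its peak in any library under an alternative, or lacked a tabled start where starts alone were read. Lost calls are therefore not among the 11. No paired analysis was possible because there is only 1 group. The depth of the libraries is unknown, so a missing peak sets no limit on accessibility, and the cause of each change was not tested.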
